A study of Mus musculus with 24 samples.

Results

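The genes described here are 45 mouse genes that act in G2 and mitosis, chosen by name with earlier results of these data known. They were found through their Ensembl identifiers among the 43629 gene identifiers of each count file, all 45 were present, and all 45 passed the filter on low counts. Expression was measured by RNA sequencing in bone marrow-derived macrophages of wild-type C57BL/6 mice, which are grown from marrow progenitors in a dish with CSF-1, the growth factor that drives their proliferation. Cells were used on day 7 of culture, and per the labels the cultures were kept in CSF-1 at 20 ng/mL, so the unstimulated cells had it too. The 8 groups of 3 libraries each were unstimulated cells, cells given lipopolysaccharide (LPS, a bacterial cell wall product), cells given LPS with interferon gamma (LPS+IFNg, IFNg at 50 ng/mL) and cells given interleukin 4 (IL-4, at 20 ng/mL), each at 1 h and at 18 h. The labels give LPS doses of 20 and 100 ng/mL without saying which applies to which library. They do not say whether the 3 libraries of a group came from separate mice or cultures, so each p-value reflects only how much these libraries varied, possibly for technical reasons. The cells are primary and in bulk culture, so each value is an average over cells that may be in any cycle phase.

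A cell that has copied its DNA passes through G2 and then divides. Cyclin B bound to the kinase CDK1 starts mitosis, condensin folds the chromosomes, kinetochores tie them to the spindle, and a checkpoint holds the anaphase-promoting complex (APC/C) back until every chromosome is attached. Most of these genes are transcribed late in the cycle, when the B-MYB and FOXM1 factors replace the DREAM repressor complex at promoters that carry a cell cycle homology region (CHR) and boxes bound by the factor NF-Y. Bone marrow-derived macrophages divide in CSF-1, and bacterial products and interferons are known to halt that division.

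Total counts ran from 4181890 to 8122945 per library, with 15450 to 19108 genes detected, and 12765 genes were tested. Levels are given as CPM (counts scaled to a common library total) after TMM scaling for library composition. All 9 macrophage markers (among them Adgre1, Csf1r and Cd68) had counts in each group, with summed levels of 11070 to 25750 CPM per library. T cell, B cell, dendritic cell, stromal and erythroid markers summed to at most 8.511, 1.254, 5.165, 1.894 and 0.1853 CPM, and markers of neutrophils and their precursors to between 24.06 and 159 CPM. The neutrophil markers were lowest in LPS+IFNg cells at 18 h (24.06 to 45.64 CPM, with Mpo and Elane at 0) and summed to 65.19 to 110 CPM in unstimulated, 87.27 to 140.7 in LPS and 65.96 to 104.8 CPM in IL-4 cells at 18 h. Their part in the results was not tested. Some libraries stood apart: replicate 2 differed most from its group in LPS cells at 18 h (chi-square per gene of 9.26 and 11.45, against 2.42 for the other pair) and in IL-4 cells at 18 h (7.461 and 4.587, against 3.268), and replicate 3 of the unstimulated 18 h group had the most genes detected. No call of a member at 18 h against unstimulated cells was lost when these libraries were left out.

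Replicate 3 also had low levels of the 45 genes. It was the lowest of its group for 43 members in unstimulated, 44 in LPS, 44 in LPS+IFNg and 45 in IL-4 cells at 1 h, and for 43 in unstimulated cells at 18 h. It was the lowest for 31.1% to 36.8% of all tested genes in those groups. Genes of DNA replication and S phase, listed apart from the members, showed it as well, with replicate 3 lowest for 20 to 23 of 25. The order was thus shared by genes of both phases, and the 1 h values below carry it.

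The promoters are shown to let a reader see the elements named above. The members were chosen by name, so the shares below describe that choice and not the responses measured here. RefSeq promoters (GRCm38.p6, from 250 bases before the start to 50 after) were matched for 37 of the 45 members. A CHR was searched as TTTGAA or TTCGAA and an NF-Y box as CCAAT, each on both strands (TTCGAA reads the same on both). The letters of the 2 motifs can share at most 1 base. Shares are over gene symbols, and a symbol with more than 1 promoter counts if any of them holds the element. A CHR was in 31 of the 37 members (83.78%), against 21.66% of all 27025 symbols with a promoter. At least 1 NF-Y box was in 29 (78.38%, against 41.06%), and both elements were in 27 (72.97%, against 8.61%). Among members with a CHR, 27 of 31 (87.1%) had it within 40 bases of the start, against 24.2% of all symbols with one. Each sequence below runs 5′ to 3′ in the gene's own direction from 100 bases before the start to 15 after, with the elements in capitals. TTCAAA and ATTGG are the 2 motifs read from the other strand. The first lines are genes with both elements, and Mki67 is shown further upstream, from 200 to 80 bases before its start, where its elements lie.
Cdk1, chr10:69352898-69353012 (minus strand): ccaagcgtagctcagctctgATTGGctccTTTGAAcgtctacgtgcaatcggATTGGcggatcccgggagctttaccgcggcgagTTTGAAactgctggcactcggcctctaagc
Ccnb2, chr9:70421540-70421654 (minus strand): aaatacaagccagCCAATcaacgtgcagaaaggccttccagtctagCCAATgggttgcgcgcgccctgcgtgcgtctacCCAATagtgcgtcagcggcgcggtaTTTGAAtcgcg
Cdc20, chr4:118437329-118437443 (minus strand): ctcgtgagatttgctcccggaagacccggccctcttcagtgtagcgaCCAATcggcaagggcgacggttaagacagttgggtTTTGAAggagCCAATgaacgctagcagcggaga
Top2a, chr11:99024175-99024289 (minus strand): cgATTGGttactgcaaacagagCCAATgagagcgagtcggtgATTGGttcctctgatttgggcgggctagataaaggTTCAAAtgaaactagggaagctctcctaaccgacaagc
Mki67, chr7:135716460-135716579 (minus strand): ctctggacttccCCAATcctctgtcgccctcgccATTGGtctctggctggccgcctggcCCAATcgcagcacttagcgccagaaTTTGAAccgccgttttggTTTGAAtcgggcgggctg
The next 2 promoters lack a CHR in the window, Ccnb1 with a pair of NF-Y boxes and Birc5 with neither element.
Ccnb1, chr13:100786472-100786586 (minus strand): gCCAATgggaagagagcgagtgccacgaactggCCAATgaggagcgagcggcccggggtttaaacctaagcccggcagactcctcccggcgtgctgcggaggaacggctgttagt
Birc5, chr11:117849137-117849251 (plus strand): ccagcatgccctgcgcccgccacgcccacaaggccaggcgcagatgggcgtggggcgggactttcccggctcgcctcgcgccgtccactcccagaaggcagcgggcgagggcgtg
Neither element was found in Nuf2, Nusap1, Ncaph and Birc5, and Cenpe and Ccnb1 held an NF-Y box and no CHR. A match to these letters describes the window and says nothing of what bound there.

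**Figure D1:**
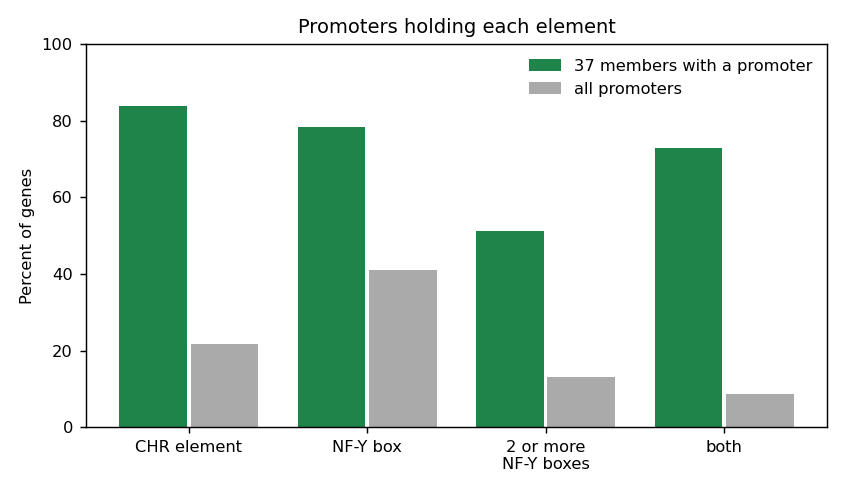
Percent of genes (y axis) with an element in a promoter (x axis). The elements are a CHR, an NF-Y box, 2 or more NF-Y boxes, and a CHR with an NF-Y box. Green bars are the 37 matched members and grey bars all 27025 gene symbols with a promoter. The member bars, from 51.35% to 83.78%, stand above the grey bar of each pair.

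In unstimulated cells the genes were plainly expressed. At 18 h the member levels ran from 17.762 to 354.45 CPM with a median of 61.317 CPM, and all members had counts in all 3 libraries. Per kilobase of exon, the highest levels were those of Top2a, the topoisomerase that untangles sister DNA (39.2 CPM per kb), Ccna2, the cyclin A2 gene (37.4), and Ccnb2, a cyclin B gene (36.9). The lowest was Kif14, a kinesin of the cell midbody (2.60 CPM per kb).

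Summed over the 45 genes, the level at 18 h was 3993, 3767 and 3269 CPM in the 3 unstimulated libraries, 131.7, 124.7 and 131.8 CPM with LPS, 172.8, 165 and 171.8 CPM with LPS+IFNg, and 1938, 1989 and 1945 CPM with IL-4. No library of a stimulated group reached the lowest unstimulated one. LPS cells held 3.52% of the unstimulated level, LPS+IFNg cells 4.62% and IL-4 cells 53.2%. Within replicate numbers the unstimulated sum was 30.3, 30.2 and 24.8 times that with LPS, 23.1, 22.8 and 19 times that with LPS+IFNg, and 2.06, 1.89 and 1.68 times that with IL-4. With reads scaled by library size alone, the group means were 4282, 112.7, 136.4 and 2183 CPM in the same order. These are bulk values, in which fewer cells in G2 or mitosis and less RNA per cell cannot be told apart.

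**Figure D2:**
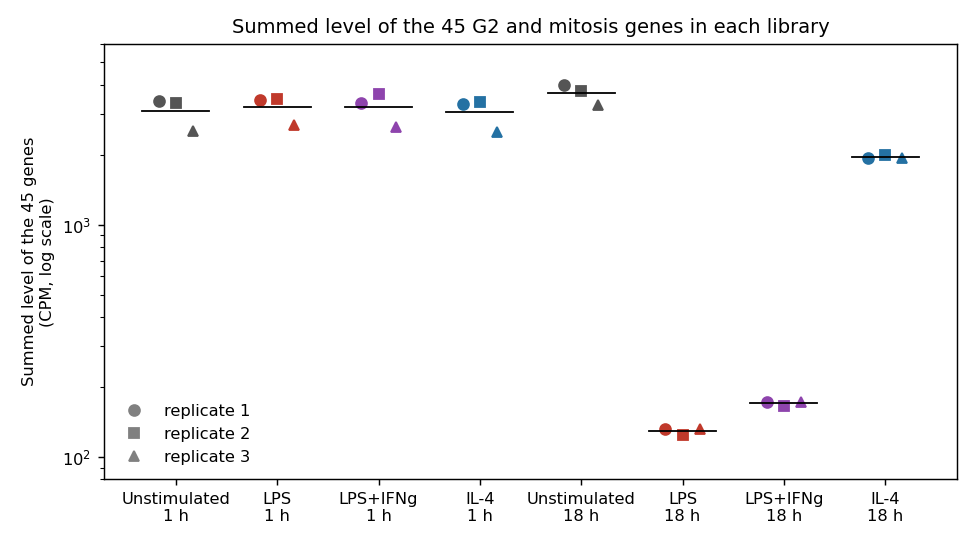
Summed level of the 45 genes in CPM (y axis, log scale) in each of the 24 libraries (points), with the mean of each group of 3 (bar). All libraries at 1 h lie between 2503 and 3662 CPM, and at 18 h the groups separate into unstimulated, IL-4 and the 2 groups given LPS.

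Cells given LPS for 18 h had lower levels of all 45 genes than unstimulated cells. The edgeR quasi-likelihood test with Benjamini-Hochberg adjustment over the 12765 genes called 45 lower and 0 higher at adjusted p under 0.05, where 31.3% of all tested genes were called lower and 31.8% higher. The median log2 fold change was -5.57, against 0.01 over all tested genes, and the highest adjusted p of a member was 7.8e-13. Per member, LPS cells kept a median of 2.04% of the unstimulated level, with 36 of 45 under 5% and 43 under 10%. The calls held under each alternative run and with each replicate left out.

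The 5 genes of mitotic entry all fell. Cdk1, the mitotic kinase, stood at 158, 139 and 121 CPM in unstimulated cells and 6.75, 8.55 and 10.6 CPM with LPS (log2 fold change -4.01 ± 0.19, SE). Ccnb1, the main mitotic cyclin, went from 84.7, 68.8 and 58.9 CPM to 0.533, 1.04 and 1.13 CPM (-6.28 ± 0.29). Foxm1, the transcription factor that drives late cycle genes, went from 77.4, 73.5 and 62.1 CPM to 0.711, 0.208 and 0.189 CPM (-7.46 ± 0.34), which rests on 6 counts over the 3 LPS libraries. The groups did not overlap for any of them. Each SE is derived from the test statistic. With so few counts in a group it can be smaller than counting error alone, so it does not rank such members. Ccna2, whose cyclin acts in S phase and at mitotic entry, fell by 5.01 ± 0.20 on the log2 scale, and Ccnb2 had 4 counts with LPS. The median over the entry genes was -6.28.

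The mitotic kinases differed in how far they fell. Plk1, a kinase of entry, spindle and cytokinesis, had 62.0, 70.5 and 56.3 CPM in unstimulated cells and 0.711, 0.417 and 0 CPM with LPS (-7.29 ± 0.34). Aurkb, the kinase of the chromosomal passenger complex that corrects faulty attachments, had 62.1, 58.0 and 50.9 CPM and then 2.31, 3.54 and 1.70 CPM (-4.51 ± 0.20). Aurka, the centrosome and spindle pole kinase, fell by 3.78 ± 0.18. The 2 passenger subunits spread as widely, with Cdca8, which encodes borealin, at -3.37 ± 0.18 and Birc5, which encodes survivin, at -6.64 ± 0.34.

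Checkpoint and kinetochore genes were lowered with them. Cdc20, the APC/C activator that the checkpoint restrains, had 58.8, 53.1 and 48.7 CPM in unstimulated cells and 1.07, 0.834 and 0.757 CPM with LPS (-5.87 ± 0.26). The checkpoint genes Bub1, Bub1b and Ttk had log2 fold changes of -6.83 ± 0.30, -4.45 ± 0.20 and -5.51 ± 0.33. The NDC80 complex, which grips microtubule ends, is encoded by Ndc80, Nuf2, Spc24 and Spc25. Ndc80, Nuf2 and Spc25 had log2 fold changes of -5.29 ± 0.25, -5.74 ± 0.30 and -5.15 ± 0.29, and Spc24 had 3 counts with LPS, a ratio of depth-scaled counts of 92.93 (95% counting interval 31.53 to 452.9). Cenpa, the histone variant that marks centromeres, kept more, with 56.9, 51.8 and 53.3 CPM in unstimulated cells and 4.09, 6.67 and 5.11 CPM with LPS (-3.36 ± 0.17). Cenpf, a large kinetochore protein, had 1 count in the 3 LPS libraries together.

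Among chromosome genes, Top2a went from 388, 358 and 315 CPM to 2.67, 2.50 and 3.22 CPM (-6.97 ± 0.22). Mki67, which encodes the Ki-67 protein that coats mitotic chromosomes, went from 391, 364 and 309 CPM to 12.1, 6.25 and 9.83 CPM. The condensin genes fell by unequal amounts, with log2 fold changes of -3.51 ± 0.21 for Smc2, the subunit that both condensins share, -4.01 ± 0.19 for Ncaph, -4.85 ± 0.28 for Ncapg and -5.57 ± 0.24 for Ncapd2, which belong to condensin I. Smc2 stood at 13.5, 5.42 and 11.5 CPM with LPS, against 129, 125 and 98.6 CPM without it. Esco2, an acetyltransferase that locks cohesin on sister chromatids, had no count in any LPS library, which makes it at least 96.52-fold lower when 3 counts over the group are taken as the floor.

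Spindle and cytokinesis genes held both the smallest and the largest fitted change, those of Tpx2 and Kif14. Which member fell most is not resolved, since the largest fitted values rest on very few counts. Cenpf, with its 1 count, had a ratio of 872.8 (156.3 to 34510). Kif14 had 31.8, 25.5 and 23.5 CPM in unstimulated cells and no count with LPS, at least 140.4-fold lower on the same floor. Kif11, the kinesin that pushes the spindle poles apart, had a log2 fold change of -6.49 ± 0.25, and Kif2c, a kinesin that shortens microtubules, of -6.60 ± 0.30. The genes of the central spindle, Prc1, Kif23, Racgap1 and Ect2, had log2 fold changes of -5.76 ± 0.21, -5.48 ± 0.22, -5.51 ± 0.24 and -5.22 ± 0.28. Anln, the scaffold of the cleavage furrow, had 3 counts with LPS, a ratio of 498 (170.1 to 2417).

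The smallest change was that of Tpx2, which encodes an activator of Aurora A that nucleates spindle microtubules (chr2:152847964-152895321, plus strand). It had 123, 119 and 97.5 CPM in unstimulated cells and 26.8, 25.9 and 24.8 CPM with LPS (-2.13 ± 0.14, adjusted p = 4.0e-14). It alone kept over 20% of its unstimulated level and made up 20% of the summed member level in LPS cells. Next came Kif4, a chromosome kinesin, at -2.70 ± 0.20. Exons of Kif4 overlap those of Pdzd11 on the other strand, and whether the counting used strand is not given in the sources used here. Exons of Ccna2, Foxm1, Plk1, Cdca8, Cdc20, Top2a, Ncapd2, Ncapg, Nusap1, Kif20a and Prc1 also overlap another gene, and how shared reads were assigned was not tested.

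**Figure D3:**
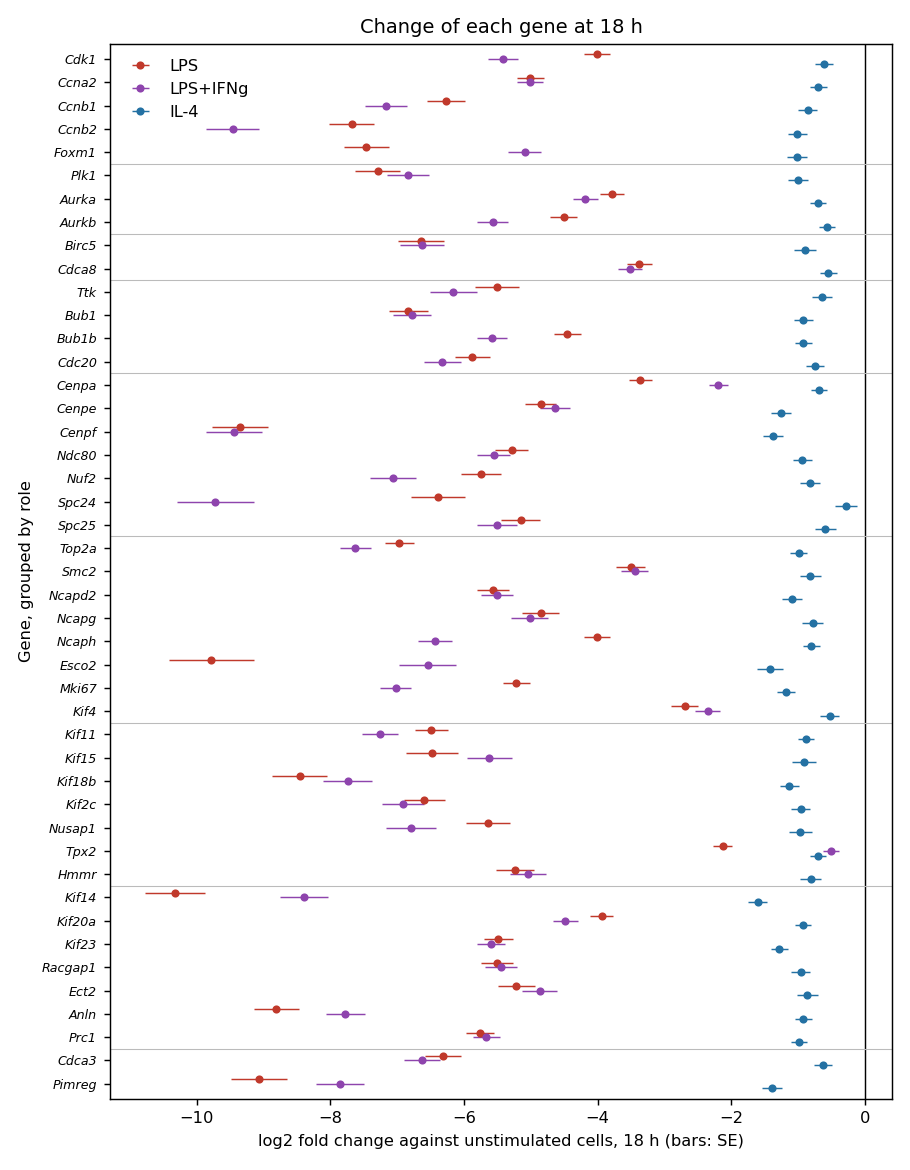
Fitted log2 fold change against unstimulated cells at 18 h (x axis) of each of the 45 genes (rows, ordered by role) for LPS, LPS+IFNg and IL-4 (points, with bars of 1 SE). The points for both groups given LPS lie far to the left of those for IL-4, except for Tpx2 with LPS+IFNg. The bars can understate the uncertainty of genes with few counts in the groups given LPS.

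LPS with IFNg lowered the same 45 genes at 18 h. All 45 were called lower and 0 higher, where 36.1% of all tested genes were called lower and 36.1% higher. The median log2 fold change was -5.66, and the members kept a median of 1.96% of the unstimulated level. Mki67 stood at 3.11, 1.90 and 3.03 CPM (-7.02 ± 0.24), Top2a at 2.33, 1.33 and 1.52 CPM (-7.63 ± 0.23) and Cdk1 at 4.04, 2.47 and 3.03 CPM (-5.42 ± 0.23). All these libraries lay below the lowest unstimulated ones. Spc24 had no count, at least 100.5-fold lower on the floor of 3 counts. Ccnb2 had 1 count, a ratio of 958.4 (171.6 to 37890), and Esco2 had 3, a ratio of 104.4 (35.43 to 508.7). This comparison shares its unstimulated libraries with the LPS comparison, so the pair are not independent.

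Tpx2 again kept the largest share of its level. It had 81.2, 80.2 and 78.2 CPM against 123, 119 and 97.5 CPM in unstimulated cells, 70.6% of that level (-0.50 ± 0.12, adjusted p = 5.0e-04, and -1.04 with library-size scaling). The groups did not overlap. Cenpa, at 11.95, 11.0 and 12.3 CPM (-2.19 ± 0.14), was the only other member over 20%. Tpx2 held 47% of the summed level in LPS+IFNg cells, against 3.55% in IL-4 cells.

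LPS with IFNg was also compared with LPS alone. Because the labels tie neither LPS dose to a library, IFNg and a possible difference in LPS dose cannot be told apart here. At 18 h the test called 3 members higher and 5 lower, where 24% of all tested genes were called higher and 23.4% lower. Tpx2 was higher in the cells that also had IFNg by 1.63 ± 0.14 on the log2 scale (adjusted p = 8.2e-11). Cenpa was higher by 1.17 ± 0.22 and Foxm1, with 12, 11 and 12 counts against 4, 1 and 1, by 2.37 ± 0.73 (adjusted p = 0.0082). The exons of Foxm1 overlap those of Tex52 on the same strand. Foxm1 and Aurkb passed the count filter only through the other groups. With LPS and LPS+IFNg at 18 h fitted alone the filter kept 17 members, Foxm1 and Aurkb were not tested, and 2 members were called higher and 4 lower. Ncaph, a condensin I subunit, had 0.311, 0.948 and 0.947 CPM against 4.80, 3.13 and 3.59 CPM (-2.42 ± 0.45). Mki67 (-1.81 ± 0.37, adjusted p = 1.6e-04) and Cdk1 (-1.41 ± 0.34, adjusted p = 0.0012) were lower too, with no overlap between the groups. Bub1b (-1.13 ± 0.41, adjusted p = 0.025) and Aurkb (-1.06 ± 0.43, adjusted p = 0.043) passed narrowly. Bub1b lost its call without replicate 1 or 3 of either group (adjusted p = 0.0589 to 0.114). Aurkb lost it without LPS replicate 1 or 2 or any LPS+IFNg replicate (0.0624 to 0.233). The other 37 members were not called, and 27 members had under 30 counts over the 3 LPS+IFNg libraries, so differences among them were hard to detect at this depth. The summed level was 1.31, 1.32 and 1.3 times higher with IFNg within replicate numbers. Without Tpx2 the order turned, with 104 ± 4.26 CPM for LPS and 89.98 ± 4.61 CPM for LPS+IFNg (SD, n = 3).

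**Figure D4:**
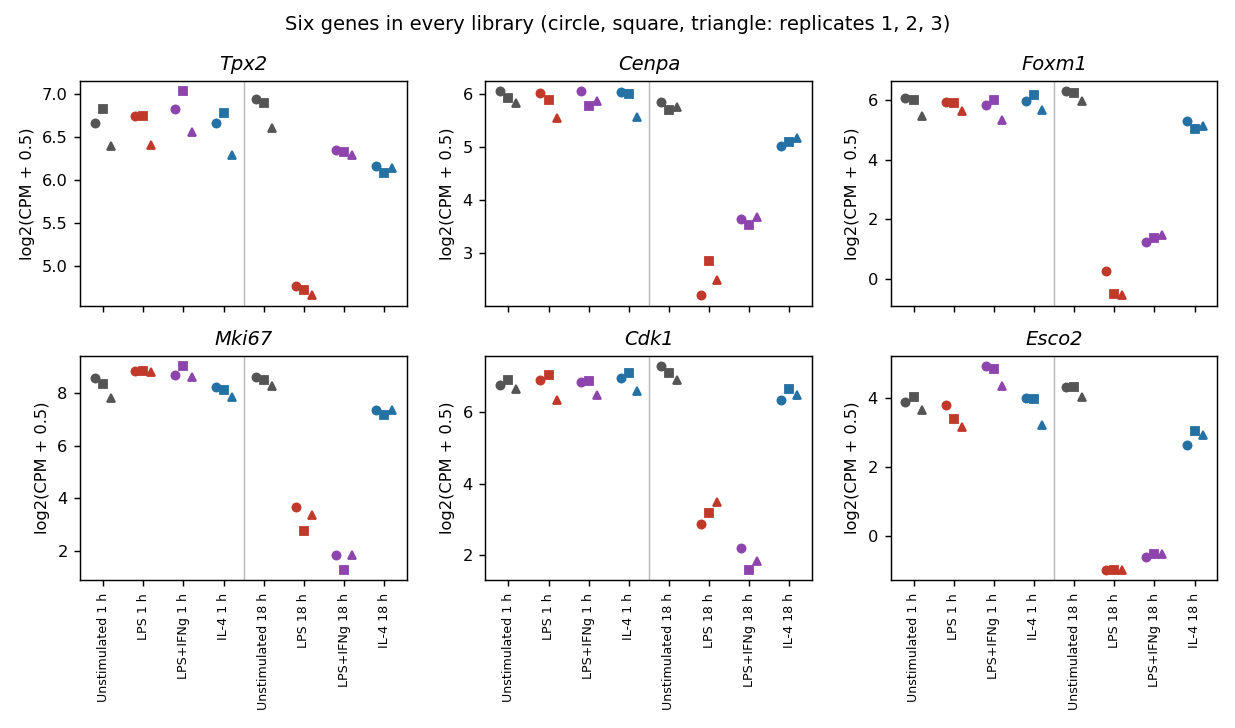
Level as log2 (CPM + 0.5) (y axis, with its own range in each panel) of Tpx2, Cenpa, Foxm1, Mki67, Cdk1 and Esco2 in each library (points) of the 8 groups (x axis). Tpx2 stays near 80 CPM in LPS+IFNg cells at 18 h, where Mki67 and Cdk1 lie under those of LPS cells.

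IL-4 gave a partial fall. At 18 h, 44 of 45 members were called lower and 0 higher, where 20.1% of all tested genes were called lower and 19% higher. The median was -0.91, and 12 members were lower by more than 2-fold. For all 45 genes the highest IL-4 library lay under the lowest unstimulated one. How many of all tested genes were separated in this way was not counted, so this count has no baseline here. The members kept 33% to 82.2% of the unstimulated level, against 0% to 22.8% with LPS. Kif14, at 8.62, 8.02 and 10.1 CPM, fell the most (-1.60 ± 0.14, adjusted p = 4.0e-10). Esco2 (-1.42 ± 0.20), Pimreg, a mitotic regulator (-1.39 ± 0.15), and Cenpf (-1.37 ± 0.15) followed. Mki67, at 164, 142 and 164 CPM, fell by 1.18 ± 0.14. Top2a had 180, 175 and 178 CPM (-0.99 ± 0.13) and Cdk1 had 81.5, 101 and 89.9 CPM (-0.61 ± 0.14). The uncalled member was Spc24, with 13.8, 14.9 and 15.1 CPM against 18.6, 18.0 and 16.6 CPM (-0.28 ± 0.16, adjusted p = 0.18).

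By role, the IL-4 medians lay close together, from -0.71 for the 3 kinases to -1.01 for the pair of other genes, Pimreg and Cdca3. With LPS they ran from -4.51 for the kinases to -7.70 for that pair, and with LPS+IFNg from -5.07 for the passenger genes to -7.24. Set against LPS directly, all 45 members were higher in IL-4 cells at 18 h and 0 lower, where 32.9% of all tested genes were called higher and 32.1% lower. The median difference was 4.67 on the log2 scale, from 1.43 for Tpx2 upward.

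**Figure D5:**
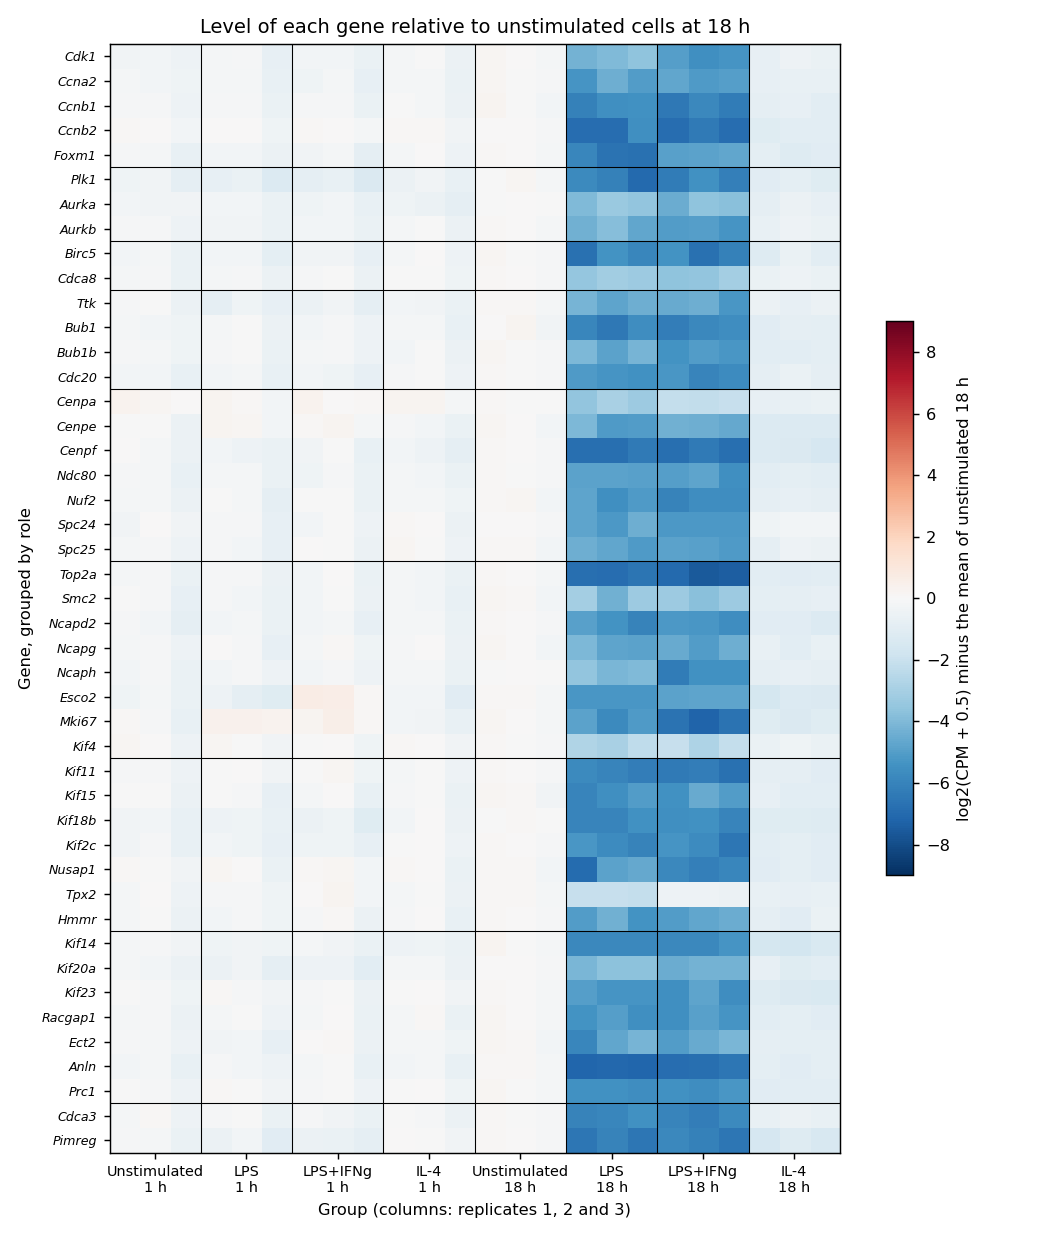
Level of the 45 genes as log2 (CPM + 0.5), relative to each gene's mean in unstimulated cells at 18 h (colour), by gene (rows, in order of role) and library (columns, in order of group). The 6 libraries given LPS, with or without IFNg, for 18 h are blue for nearly all genes. On this colour scale IL-4 libraries at 18 h are only faintly blue, and libraries at 1 h are pale.

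At 1 h few of the genes were called. With LPS 1 member was called higher and 1 lower (10.8% and 11.4% of all tested genes). With LPS+IFNg 2 were called higher and 1 lower (14.7% and 14.7%). With IL-4 0 were called higher and 0 lower by edgeR (3.22% and 3.27%), with 2 members at an unadjusted p under 0.05 and 0 called by DESeq2 or limma-voom. The member shares lie under the shares of all genes. Summed levels were 3396, 3338 and 2542 CPM in unstimulated, 3458, 3472 and 2685 in LPS, 3326, 3662 and 2635 in LPS+IFNg and 3302, 3365 and 2503 CPM in IL-4 cells, so replicate 3 was low in each group.

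Mki67 was higher 1 h after LPS, with 453, 454 and 447 CPM against 379, 321 and 222 CPM in unstimulated cells (0.55, adjusted p = 0.00295), and after LPS+IFNg, with 409, 520 and 386 CPM (0.51, adjusted p = 0.0045). The LPS call was lost with library-size scaling (0.36, adjusted p = 0.0561). The LPS+IFNg call was lost with that scaling (0.24, adjusted p = 0.165), without unstimulated replicate 3 (adjusted p = 0.0595) and without LPS+IFNg replicate 2 (adjusted p = 0.0617). Ttk, at 9.97, 14.1 and 11.0 CPM with LPS against 17.3, 18.2 and 12.6 CPM, was lower (-0.47, adjusted p = 0.048), and so was Plk1 with LPS+IFNg, at 36.1, 40.04 and 25.5 CPM against 48.7, 50.5 and 35.7 CPM (-0.42, adjusted p = 0.043). In the Ttk comparison and in that of Plk1 the groups overlapped. Ttk lost its call in 9 alternatives, such as without LPS replicate 1 (adjusted p = 0.226), LPS replicate 3 (0.133), or unstimulated replicate 1 (0.159) or 2 (0.195). Plk1 lost it in 7, such as without unstimulated replicate 1 (0.152) or 2 (0.179), or LPS+IFNg replicate 1 (0.0568) or 3 (0.304).

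Esco2 had the smallest adjusted p of the members at 1 h (chr14:65819038-65833994, minus strand). It had 30.02, 28.3 and 19.9 CPM with LPS+IFNg, 14.2, 16.0 and 12.02 CPM in unstimulated cells, 13.4, 10.1 and 8.51 CPM with LPS and 15.7, 15.3 and 8.79 CPM with IL-4. Each LPS+IFNg library was above all libraries of the other groups at 1 h. The log2 fold change was 0.87 against unstimulated cells (adjusted p = 2.6e-04) and 1.27 against LPS (adjusted p = 1.9e-05), and both calls held in all alternatives run. LPS+IFNg against LPS at 1 h called this member alone, 1 higher and 0 lower, where 6.52% and 5.25% of all tested genes were called. The neighbouring gene Ccdc25, which starts 3308 bases from the Esco2 start and points the other way, rose by more (1.93 ± 0.10 against unstimulated cells and 2.37 ± 0.11 against LPS). Pbk, 1216 bases from the other end of Esco2, stood at 0.03 ± 0.15. At 18 h Ccdc25 was still higher with LPS+IFNg than in unstimulated cells (1.92 ± 0.10), while Esco2 had 3 counts.

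The change in the response between 1 h and 18 h was tested as such. The response to LPS was lower at 18 h than at 1 h for all 45 members and higher for 0, where 27.2% and 27% of all tested genes were called. The response to LPS+IFNg was lower for 45 and higher for 0 (32.2% and 31.8% of all genes), and that to IL-4 lower for 41 and higher for 0 (11.4% and 10.1%). The median differences were -5.64, -5.68 and -0.89 on the log2 scale.

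Without stimulus, the genes stood slightly higher at 18 h than at 1 h. Of the 45, 44 had a positive fitted change with a median of 0.24, and 17 had an unadjusted p under 0.05. The share of all tested genes at that unadjusted p was not counted. Of all tested genes 4% were called higher and 8.01% lower in the main fit, which used no replicate block. Of the members only Plk1 passed adjustment there, so 1 was called higher and 0 lower. It had 62.0, 70.5 and 56.3 CPM at 18 h against 48.7, 50.5 and 35.7 CPM at 1 h (0.48, adjusted p = 0.029), and the call was lost without replicate 3 at 1 h (adjusted p = 0.199), or without replicate 1 (0.0766) or 2 (0.165) at 18 h. The count of members called higher was 12 without a filter on low counts, 12 with the 2 groups fitted alone and 5 with library-size scaling. Of all genes, 489, 771 and 998 were called higher in those runs, against 511 in the main fit. With a replicate block the member count was higher than in any of these runs, as given in the last section. Within replicate numbers the sum was 1.18, 1.13 and 1.29 times higher at 18 h. Of the 25 S phase genes 19 were higher at 18 h and 0 lower, such as Cdc6, which loads the replicative helicase (0.73 ± 0.15), Rpa2, a subunit of the single-strand binding protein (0.70), and Tyms, which makes thymidylate (0.60).

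Other genes of the cycle, in lists apart from the members, are counted here at 18 h against unstimulated cells, with LPS, LPS+IFNg and IL-4 in that order. Of all tested genes 31.3%, 36.1% and 20.1% were called lower and 31.8%, 36.1% and 19% higher, with medians within 0.01 of 0, and the list counts below are to be read against these shares. Of 25 S phase genes, 25 were lower with LPS (median -3.26), 25 with LPS+IFNg (median -4.04) and 21 with IL-4 (median -0.48), and none was higher. Rrm2, of ribonucleotide reductase, had log2 fold changes of -6.71 with LPS, -8.63 with LPS+IFNg and -0.70 with IL-4. Tk1, thymidine kinase, had log2 fold changes of -5.36, -5.50 and -0.97, and Uhrf1, which maintains DNA methylation, of -6.01, -6.57 and -0.56. Of 33 other kinetochore genes 31, 31 and 22 were lower (medians -2.93, -3.15 and -0.53). Those higher were Zwint with LPS (0.21, but -0.21 with library-size scaling, and uncalled without a filter, adjusted p = 0.103, with the compared groups alone, 0.111, or without LPS replicate 2, 0.0657) and Zwint (0.77) and Mis12 with LPS+IFNg, the latter not with library-size scaling. Of 28 centrosome and other spindle genes 25, 25 and 23 were lower (medians -4.33, -4.63 and -0.74). The single gene higher was Sass6 with LPS (not with library-size scaling), Cenpj with LPS+IFNg (1.58), which builds centrioles, and Psrc1 with IL-4 (0.85).

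The switch that controls CDK1 was lowered on both sides. Of its 11 genes 9 were lower with LPS, 9 with LPS+IFNg and 7 with IL-4 (medians -2.66, -2.64 and -0.48), above the 31.3%, 36.1% and 20.1% of all tested genes called lower. Cdc25b, a phosphatase that activates CDK1, had log2 fold changes of -3.04, -4.62 and -0.97. Wee1, a kinase that restrains CDK1, had log2 fold changes of -2.66, -1.41 and -0.42 (the last a call lost in 9 alternatives), and Mastl, which blocks the phosphatase opposing CDK1, of -4.77, -3.44 and -1.10. Ppp2r2d and Ensa were higher with LPS and with LPS+IFNg, though with library-size scaling only Ensa with LPS was. Of 10 APC/C regulators 7 were lower in each comparison (medians -0.93, -1.04 and -0.42). Pttg1, which encodes securin, the inhibitor of separase, went the other way, higher by 1.68 with LPS and 1.59 with LPS+IFNg. Mad2l1bp was also higher with LPS+IFNg, though not with library-size scaling. Of 14 subunits of the APC/C itself 8, 8 and 3 were lower and 4, 3 and 1 higher, the latter being Anapc4, Anapc7, Anapc16 and Cdc26 with LPS, all but Anapc7 with LPS+IFNg and Cdc26 with IL-4. With library-size scaling 0, 1 and 1 were higher. The medians of the subunits were -0.30, -0.34 and 0.0026. With IL-4 the share of subunits called lower was near the 20.1% of all tested genes, and with LPS and LPS+IFNg the share called higher was near or under the 31.8% and 36.1%, so nothing about the subunits as a list is read from these counts. Of 17 cohesin and other condensin genes 13, 12 and 11 were lower (medians -1.18, -0.97 and -0.30), and 1, 5 and 0 higher: Esco1 with LPS, and Esco1 (1.13), Stag1, Stag2 (0.93), Wapl and Nipbl with LPS+IFNg. With library-size scaling only Stag2 and Esco1 with LPS+IFNg were higher.

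The genes upstream of the cycle gave a mixed picture. Cdkn1a, encoding the CDK inhibitor p21, rose in all 3 comparisons, from 229 ± 13.5 CPM in unstimulated cells to 792 ± 62.0 with LPS, 1136 ± 78.2 with LPS+IFNg and 364 ± 40.3 CPM with IL-4 (SD, n = 3, log2 fold changes 1.79, 2.31 and 0.67). Its exons overlap a gene on the other strand. Cdkn2c, encoding the inhibitor p18, had log2 fold changes of -4.92, -5.54 and -1.10. Cdkn1b, encoding p27, stood at -0.53 with LPS, -0.64 with IL-4 and 0.44 with LPS+IFNg, where it was at -0.10 with library-size scaling. In all, 6, 4 and 6 of 8 inhibitor genes were lower and 1, 3 and 1 higher (medians -1.09, -0.55 and -1.09), where 31.3%, 36.1% and 20.1% of all tested genes were called lower and 31.8%, 36.1% and 19% higher. With LPS+IFNg the inhibitor counts, over 8 genes, lay near those shares in both directions. With LPS+IFNg those higher were Cdkn1a, Cdkn1b and Cdkn2b, and with library-size scaling Cdkn1a alone. Of 22 RB, E2F and DREAM factors 16, 13 and 11 were lower (medians -0.81, -0.56 and -0.31). Those higher were E2f4 and Lin37 with LPS, E2f4 with IL-4, none of which held with library-size scaling, and Rbl1 with LPS+IFNg. Mybl2, which encodes the B-MYB factor that activates promoters with a CHR, had log2 fold changes of -4.77 with LPS+IFNg and -0.55 with IL-4, and with LPS it had 2 counts.

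The D and E cyclins, which drive G1, differed between the groups given LPS. Of 11 G1 cyclin and kinase genes 7, 5 and 7 were lower, and those higher were Ccnd2 and Ccnd3 with LPS and Ccnd2, Ccne1 and Cdk7 with LPS+IFNg, of which Ccnd2 alone was higher with library-size scaling. The medians of these 11 genes were -0.53, 0.07 and -0.37, so with LPS+IFNg the median lay above 0 although more genes were lower than higher, and its counts lay near the 36.1% of all tested genes called in each direction. Ccnd1 stood at 565 ± 59.1 CPM in unstimulated, 161 ± 5.95 in LPS, 594 ± 14.1 in LPS+IFNg and 437 ± 31.0 CPM in IL-4 cells (SD, n = 3). Ccne1 stood at 30.6 ± 3.08, 5.32 ± 1.07, 42.4 ± 2.01 and 22.9 ± 4.04 CPM in the same order. Against LPS alone, LPS+IFNg was higher in Ccne1 by 2.996 ± 0.19 on the log2 scale, in Ccnd1 by 1.89, in Ccnd2 by 1.27, and in Rbl1, which encodes the DREAM pocket protein p107, by 2.59. All of these were also higher with library-size scaling. Ccne1 with LPS+IFNg was higher than in unstimulated cells by 0.47, but at -0.07 with library-size scaling. Ccnd2 had log2 fold changes of 1.86 with LPS, 3.13 with LPS+IFNg and -1.51 with IL-4, and its exons overlap genes on the other strand. Plk4, the kinase that starts centriole copying, and Cenpj were higher with LPS+IFNg than with LPS by 1.70 and 1.38. Cdc25b (-1.59) and the helicase genes Mcm2 (-1.08) and Mcm6 (-1.04) were lower.

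The responses of members with and without both promoter elements overlapped. With LPS the median log2 fold change was -5.51 over the 27 members with both and -6.01 over the 10 without. With LPS+IFNg the medians were -5.59 and -6.72, and with IL-4 -0.88 and -0.92. This was so in all 3 comparisons. With LPS the members with both ran from -10.33 to -2.70 and the 10 without from -8.81 to -4.01, where the lowest value of each set rests on few counts. The 10 include members with 1 of the elements, such as Ccnb1, and what the elements do was not tested.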

How the data were processed

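RNA of 24 libraries was measured. Each has its own file, deposited by the authors without a header, of whole-number counts per Ensembl gene. The submitters' processing notes list GRCm38 as the build, with deepTools, DESeq2, featureCounts and STAR as tools, and no versions. The kit was stranded, per the labels' protocols, but the strand setting of the counting is not given in the sources used here. Names and positions came from GENCODE M21, with 42462 of 43629 identifiers matched.

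Counts were fitted with edgeR 4.0.16 (R 4.3.3): TMM scaling, filterByExpr with a minimum count of 10, and a quasi-likelihood model of the 8 group means over all 24 libraries. SE is the log2 fold change divided by the root of F. Where a group held few counts, this can be smaller than counting error alone and is no measure of precision. P-values were adjusted by Benjamini-Hochberg over 12765 genes and called under 0.05. The code was tested on simulated data. Alternatives used DESeq2 1.42.0, limma 3.58.1 (voom), 2 other scalings, no filter, a threshold of 0.01, the compared groups alone, a replicate block and each replicate left out. Counting intervals are at 95%, cover counting error only, and use a floor of 3 counts over a group. Libraries held 4181890 to 8122945 counts.

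The members and the other gene lists were chosen with earlier results of these data known. Every member could be named; per-library values were set for a fixed 8 genes and those with the largest and smallest changes, and from each other list up to 4 called genes with the largest change. Others named were chosen after their values were seen. Same-numbered replicates deviated together (all correlations over 0.1) in IL-4 against unstimulated at 1 h (0.139, 0.245 and 0.175) and IL-4 against LPS at 18 h (0.164, 0.454 and 0.132), which is a hint from the data, since the labels do not say what a number marks. In those comparisons the block changed no member's call. Without it 0 and 45 of the 45 members were called there, so this says little of whether the pairing matters. In others, such as LPS+IFNg at 1 h and unstimulated cells at 18 h against 1 h, it raised the member counts, as given in the last section.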

Additional observations from a re-analysis of the deposited data

Results flagged for a closer look

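The responses to each stimulus differed between 18 h and 1 h by a test of the difference itself (edgeR interaction contrasts, adjusted over all tested genes). The response to LPS was lower at 18 h for 45 members, and the largest fitted differences, on the log2 scale, were those of Kif14 (-10.13), Esco2 (-9.39) and Cenpf (-9.15). The response to LPS+IFNg was lower at 18 h for 45 members, led by Spc24 (-9.68), Ccnb2 (-9.48) and Cenpf (-9.33). All of these fitted values rest on 0 to 3 counts in the stimulated group at 18 h, so their size depends on the model's handling of low counts and is no bound. The response to IL-4 was lower at 18 h for 41 members, led by Pimreg (-1.57), Esco2 (-1.33) and Kif23 (-1.31), a kinesin of the central spindle, whose counts were ample in both groups. The 4 members of the IL-4 contrast that did not pass had the same direction.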

How the results depend on the processing

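At 18 h the calls against unstimulated cells (45 with LPS, 45 with LPS+IFNg, 44 with IL-4) and of IL-4 against LPS (45) were kept in each alternative and with each replicate left out, and 36 of the 41 IL-4 interaction calls were. The calls at 1 h depended on the setting, and the cause was not tested. For LPS at 1 h, 1 member was called higher, against 0 with library-size scaling and 2 with the replicate block. There 1 was called lower, against 0 with median-of-ratios scaling, at an adjusted p under 0.01, with DESeq2, with limma-voom or with the compared groups alone, 8 with library-size scaling, 2 without a filter, 2 with the replicate block, and 0 to 2 with a replicate left out. For LPS+IFNg at 1 h, 2 were called higher, against 1 with library-size scaling, 3 with the replicate block and 1 to 2 with a replicate left out. There 1 was called lower, against 16 with library-size scaling, 3 without a filter, 0 at 0.01 and 4 with the replicate block. The count was 0 with DESeq2, 2 with limma-voom, 3 with the compared groups alone, and 0 to 4 with a replicate left out. With library-size scaling 3548 (LPS) and 5254 (LPS+IFNg) of the 12765 tested genes were called lower at 1 h. The 8 and 16 members called lower there were smaller shares than these. For LPS+IFNg against LPS at 18 h, 5 were called lower, against 3 at 0.01, 3 with limma-voom, and 3 to 4 with a replicate left out. Unstimulated cells at 18 h against 1 h had 1 member called higher, with 511 of all genes. The member count was 5 with library-size scaling (998 of all genes), 12 without a filter (489) and 0 at 0.01 (181). That comparison had 20 with the replicate block (757), 12 with the compared groups alone (771) and 0 to 3 with a replicate left out. It had 0 when replicate 3 of all 4 groups at 1 h was left out, an alternative chosen after seeing the data, as were those leaving out replicate 2 of the LPS and IL-4 groups at 18 h, or replicate 3 of the unstimulated and IL-4 groups at 18 h. The block changed no call at 18 h against unstimulated cells. With library-size scaling the median of all tested genes was -0.19 and -0.25 (LPS and LPS+IFNg at 1 h) and -0.41 and -0.54 (at 18 h), against -0.0020, 0.011, 0.0060 and -0.0046 with TMM scaling. It turned Cdkn1b (-0.10) and Ccne1 (-0.068) with LPS+IFNg and Zwint with LPS (-0.21) at 18 h. Depth limits the members at 18 h with LPS, where 26 had under 30 counts over the group.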
